A study of Danio rerio with 12 samples.

Results

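The actinodin genes and1, and2 and and3 encode secreted proteins of the actinotrichia, the unmineralised fibrils that stiffen the fin fold of a fish embryo. The 3 genes were taken by symbol from a table of 14134 genes, and all 3 were present and passed the minimum mean of 1 CPM, a read count scaled to the size of its library. RNA came from whole zebrafish embryos (Danio rerio), selected as healthy and GFP-positive and freed of the chorion. They were placed at 23 hours after fertilization in DMSO (control), in 50 µM empagliflozin or in 50 µM canagliflozin, both inhibitors of the glucose transporter SGLT2, and lysed at 27 hours. Each of the 3 groups had 4 pools of 5 embryos. The labels name no strain, clutch or transgene behind the GFP.

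Actinotrichia lie in the fold between its epithelial sheets and are built of actinodins together with collagens. In zebrafish, RNA of and1 and and2 is known from ectodermal cells of the early fin folds and later from the mesenchyme that migrates into them. Loss of these proteins in zebrafish leaves the folds without ordered fibrils. At the stage sampled, the median fold around trunk and tail is growing.

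Libraries held 16149682 to 27842375 reads, and the actinodin genes were read well above the limit of 3 reads that a count of 0 allows: 3439 to 8387 reads for and1, 1540 to 4007 for and2 and 720 to 3003 for and3. All 22 genes checked as markers of the main embryonic tissues were detected in every pool. Control 4 and canagliflozin 4 stood apart from their groups. On the principal axis of variation, computed without the actinodin genes, control 4 scored 7.53 and canagliflozin 4 scored 5.91, against -17.9 to -8.90 for the other control and canagliflozin pools and 15.7 to 18.5 for empagliflozin. Results for the actinodin genes and counts over gene lists are therefore given with and without these 2 pools. Both lay nearer empagliflozin on that axis than the rest of their groups. Leaving them out thus favours larger differences, narrower intervals and more calls for genes that follow the axis. The p-values of that fit do not allow for this choice. Because whole embryos were lysed, more cells of a type and more RNA per cell cannot be told apart.

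RNA of and3 was higher with empagliflozin than with either DMSO or canagliflozin, by close to 1 on the log2 scale. In the control pools 1 to 4, and3 stood at 48.1, 56.0, 37.4 and 68.0 CPM. With empagliflozin the 4 values were 109, 101, 81.2 and 125 CPM, and with canagliflozin they were 34.999, 44.7, 45.1 and 96.8 CPM. Every empagliflozin pool lay above every control pool, while canagliflozin 4 lay above empagliflozin 3 and apart from the other canagliflozin pools. Group means were 104 ± 18.1 CPM with empagliflozin, 55.4 ± 28.01 with canagliflozin and 52.4 ± 12.9 in control (SD, n = 4 each). Pool 4 was the highest in each of the 3 groups. Without pool 4 the empagliflozin mean was 97.0 ± 14.3, the canagliflozin mean 41.6 ± 5.71 and the control mean 47.2 ± 9.30 (SD, n = 3 each). The fits without control 4 and canagliflozin 4 keep empagliflozin 4.

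RNA of and1, the actinodin gene with the most reads, had a larger SD in CPM than and3 in each group. On the log2 scale the spread was not wider: the standard error of a group difference was 0.243 for and3 and 0.183 for and1. The controls stood at 218, 243, 214 and 272 CPM, the empagliflozin pools at 305, 297, 245 and 394, and the canagliflozin pools at 162, 221, 231 and 357. All 3 groups overlapped: empagliflozin 3 lay below control 4, and canagliflozin 4 above all empagliflozin pools but number 4. The means were 310.2 ± 62.0 CPM with empagliflozin, 243 ± 82.1 with canagliflozin and 237 ± 26.9 in control (SD, n = 4 each). Without pool 4, again the highest of each group, they were 282 ± 32.4, 204 ± 37.1 and 225 ± 15.9 CPM (SD, n = 3 each).

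RNA of and2 stood at 115, 141, 108 and 106 CPM in the controls. With empagliflozin the values were 146, 138, 124 and 184 CPM, and with canagliflozin 72.5, 98.4, 102 and 137 CPM. Control 4, which was the highest control for and1 and and3, was the lowest for and2, and canagliflozin 4 again was the highest of its group. The means were 148 ± 25.5 CPM with empagliflozin, 117 ± 15.95 in control and 102 ± 26.6 with canagliflozin (SD, n = 4 each). In the order of means, control and canagliflozin were neighbours for all 3 genes and did not differ beyond their spread for any of them.

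**Figure D1:**
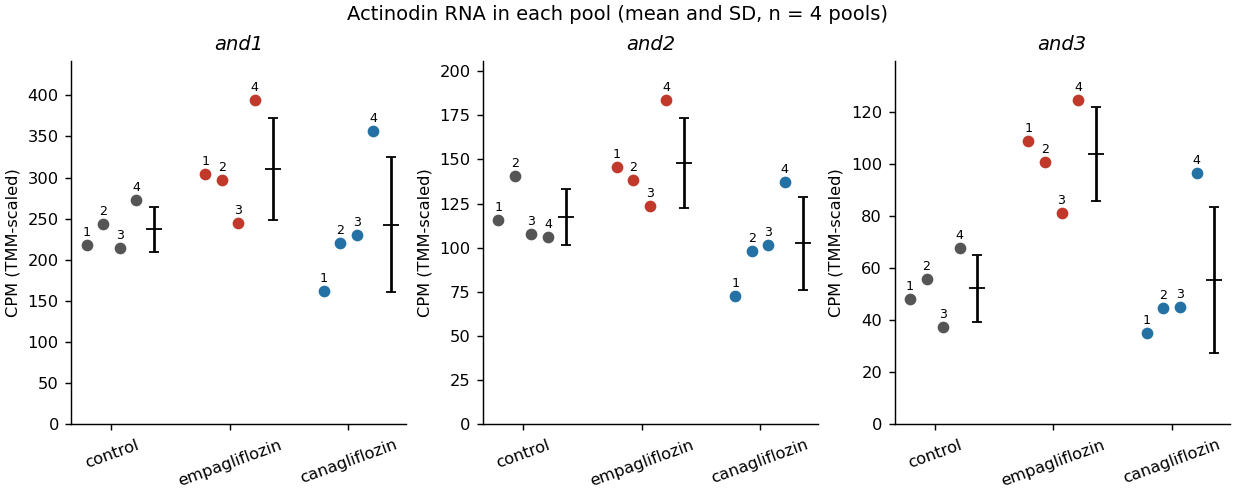
Level of and1, and2 and and3 in CPM (vertical axes, from 0) in each of the 12 pools, by group; points carry the replicate number, and bars give the mean and SD over 4 pools. For and3 the 4 empagliflozin pools, at 81.2 to 125 CPM, lie above all controls, and canagliflozin 4 lies at 96.8 CPM, away from the 3 other canagliflozin pools.

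Empagliflozin against control asks which RNAs differ after 4 hours in that compound. Of the actinodin genes, and3 rose and the others did not pass the test, although their means were higher too. and3 (Entrez 561047) was 1.99-fold higher on the CPM + 1 scale, a log2 difference of 0.99 with a 95% interval of 0.47 to 1.51 (limma adjusted p 0.0211). In this comparison 13.3% of all genes tested passed, 6.87% as higher and 6.41% as lower, and the groups did not overlap in 19.1%. By size of rise, and3 ranked 5 among 11964 genes, and by limma p-value it ranked 524. For and1 (Entrez 794315) the log2 difference was 0.37, with an interval of -0.02 to 0.76 (limma adjusted p 0.171), and for and2 (Entrez 566702) it was 0.32, with an interval of -0.01 to 0.66 (limma adjusted p 0.166). Exact two-sided permutation tests of each gene alone gave p = 0.0286 for and3, the smallest that 4 pools against 4 can give, 0.0571 for and1 and 0.0857 for and2.

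The call of and3 was lost, with limma adjusted p of 0.0515 to 0.0728, when control 1, 2 or 3 or empagliflozin 1, 2 or 4 was left out, while the difference stayed between 0.84 and 1.13. The number of genes called moved as well, from 1589 genes with all pools to 269 without control 3 and 3033 without control 4. Without control 4 and canagliflozin 4 the difference in and3 was 1.13, with an interval of 0.82 to 1.43 (limma adjusted p 4.83e-05), and and1 passed at 0.44, with an interval of 0.15 to 0.73 (limma adjusted p 0.021). In that fit and2 stood at 0.28 (limma adjusted p 0.118), and 35.5% of all genes passed, 18.9% as higher and 16.6% as lower. The remaining groups did not overlap for and1 and and3, nor for 38.8% of all genes. On these pools the exact permutation test gave p = 0.0571 for and3, 0.0571 for and1 and 0.171 for and2. With control 4 left out, 0.0571 is the smallest p that this test can give, so it could not fall below 0.05. In the authors' deposited table and3 had a log2 fold change of 0.99 and a false discovery rate listed as 0, and1 had a rate of 0.0609 and and2 of 0.0834. In it 1901 of 11969 genes had a rate under 0.05.

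Canagliflozin, given at an equal dose for an equal time, was compared with DMSO in turn. None of the actinodin genes passed, and neither did any other gene in limma: 0% of the genes tested were called, with 7.73% at an unadjusted p under 0.05; edgeR also called 0 genes and DESeq2 called 24. The pools of both groups overlapped for all 3 actinodin genes, and did not for 4.49% of all genes. The log2 difference was 0.00 for and3 (interval -0.52 to 0.52), -0.02 for and1 (interval -0.41 to 0.37) and -0.22 for and2 (interval -0.56 to 0.11), with limma adjusted p of 0.9998, 0.989 and 0.763. Canagliflozin 4 stood 1.21 above the other 3 canagliflozin pools on the log2 scale for and3, 0.82 for and1 and 0.61 for and2. Without control 4 and canagliflozin 4 the differences were -0.17 for and3, -0.15 for and1 and -0.42 for and2 (limma adjusted p 0.76, 0.771 and 0.366). For and2 the remaining pools of both groups then did not overlap, which was so for 16.4% of all genes, and the interval was -0.72 to -0.11. Limma called 0% of all genes in that fit too. The exact permutation test on the remaining pools gave p = 0.4 for and3, 0.6 for and1 and 0.1 for and2. On these pools 0.1 is the smallest p that this test can give.

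Empagliflozin and canagliflozin are related molecules, with a glucose-like ring joined through carbon to an aromatic part in which they differ, and were used at equal dose and time. RNA of and3 and and2 was higher with empagliflozin. For and3 the log2 difference was 0.99, with an interval of 0.47 to 1.51 (limma adjusted p 0.00899), and for and2 it was 0.55, with an interval of 0.21 to 0.88 (limma adjusted p 0.0196). For and1 it was 0.39, with an interval of 0.00 to 0.78 (limma adjusted p 0.127). Among 11964 genes, and3 ranked 34 by size of rise and 1229 by limma p-value. In this comparison 25.5% of all genes passed, 12.4% as higher and 13.1% as lower with empagliflozin. The groups overlapped for all 3 actinodin genes and did not for 25.6% of all genes. Exact two-sided permutation tests gave p = 0.0571 for and3, 0.0571 for and2 and 0.229 for and1. With the earlier comparisons, 9 such tests were run on all pools, and each was also run on the reduced set of pools.

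Without control 4 and canagliflozin 4 the log2 difference was 1.29 for and3 (interval 0.99 to 1.60), 0.70 for and2 (interval 0.41 to 0.98) and 0.60 for and1 (interval 0.30 to 0.89), with limma adjusted p of 1.17e-05, 0.000857 and 0.00304. All 3 genes then passed, as did 40.8% of all genes, 21.1% as higher and 19.7% as lower. The empagliflozin pools did not overlap with the remaining canagliflozin pools for any of the 3, nor for 44.7% of all genes. For each of the 3 the exact permutation test on these pools gave p = 0.0571, the smallest it can give on them. With all other pools kept, and1 also passed without canagliflozin 4 (limma adjusted p 0.00476), and and2 missed without canagliflozin 1 (0.0678) or empagliflozin 4 (0.0647). In the authors' deposited table the false discovery rate was 0.0069 for and3, 0.0307 for and2 and 0.0702 for and1. It was under 0.05 for 1861 of 11967 genes. The comparisons with control share the 4 control pools, and those of empagliflozin share the 4 empagliflozin pools, so that they are not independent of each other.

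**Figure D2:**
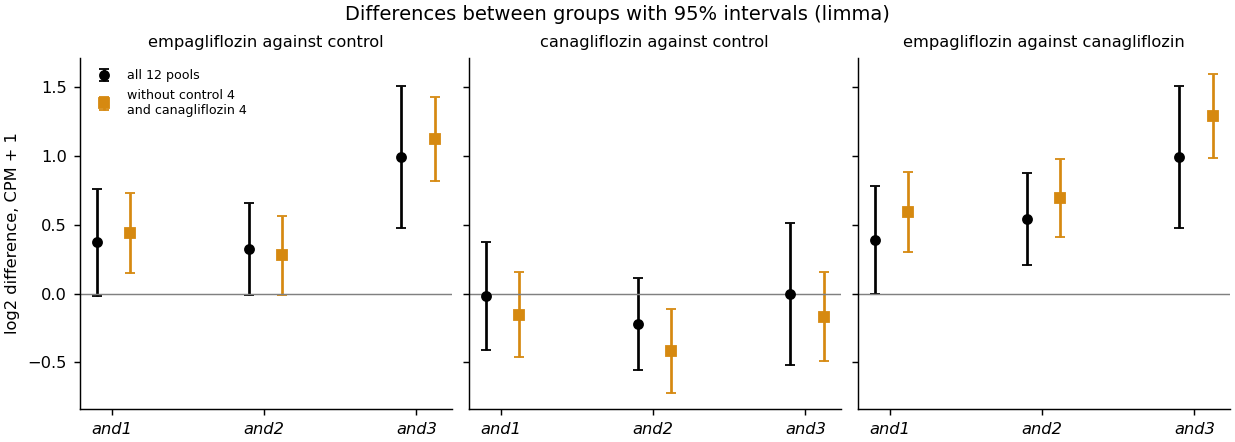
Log2 difference in CPM + 1 (vertical axis) for and1, and2 and and3 in each comparison, with 95% intervals from limma; circles use all 12 pools and squares leave out control 4 and canagliflozin 4. Against control the difference with empagliflozin is 0.99 for and3 and 0.37 and 0.32 for and1 and and2, and leaving out the 2 pools narrows the intervals.

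The actinodin genes rose and fell together from pool to pool. Over the 12 pools, Pearson's r of log2(CPM + 1) was 0.92 between and1 and and3 (Spearman's rho 0.95), 0.88 between and1 and and2 (rho 0.76) and 0.84 between and2 and and3 (rho 0.86). Permutation p-values, adjusted over the 3 pairs, were 0.00012, 0.00035 and 0.00035 for r and 6e-05, 0.00543 and 0.000945 for rho. Without the 2 pools farthest from the median of the first gene, empagliflozin 4 and canagliflozin 1, r was 0.89, 0.68 and 0.77 (permutation p 0.00039, 0.0327 and 0.015). After each group's mean was taken out, r was 0.94, 0.88 and 0.78, and over the 10 pools without control 4 and canagliflozin 4 it was 0.87, 0.96 and 0.92. The permutations shuffled pools across groups, so their p-values also take in differences between groups. No p-value was computed for r with the group means taken out. By that r, each actinodin gene was more like some other genes than like the other actinodin genes. Those ranked 7 to 739 among 9941 genes.

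The ratio of and3 to and1 was higher in the empagliflozin pools than in all others. In the empagliflozin pools 1 to 4, and3 stood at 0.358, 0.34, 0.331 and 0.316 of and1. In the controls the ratio was 0.22, 0.23, 0.175 and 0.25, and in the canagliflozin pools 0.216, 0.203, 0.195 and 0.271. Control 4 and canagliflozin 4 were the highest of their groups. The ratio of and3 to and2 had the same order in the groups, 0.656 to 0.749 with empagliflozin, but reached 0.641 in control 4 and 0.706 in canagliflozin 4. The ratio of and2 to and1 was 0.466 to 0.505 with empagliflozin, within the 0.39 to 0.577 of the controls, and 0.384 to 0.448 with canagliflozin. These ratios are descriptions with no test, and since transcript lengths were not used, they compare pools and not the abundance of one gene with another. How often ratios of other gene pairs separate the pools in this way was not counted. The ratios also restate the differences in each gene given above.

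**Figure D3:**
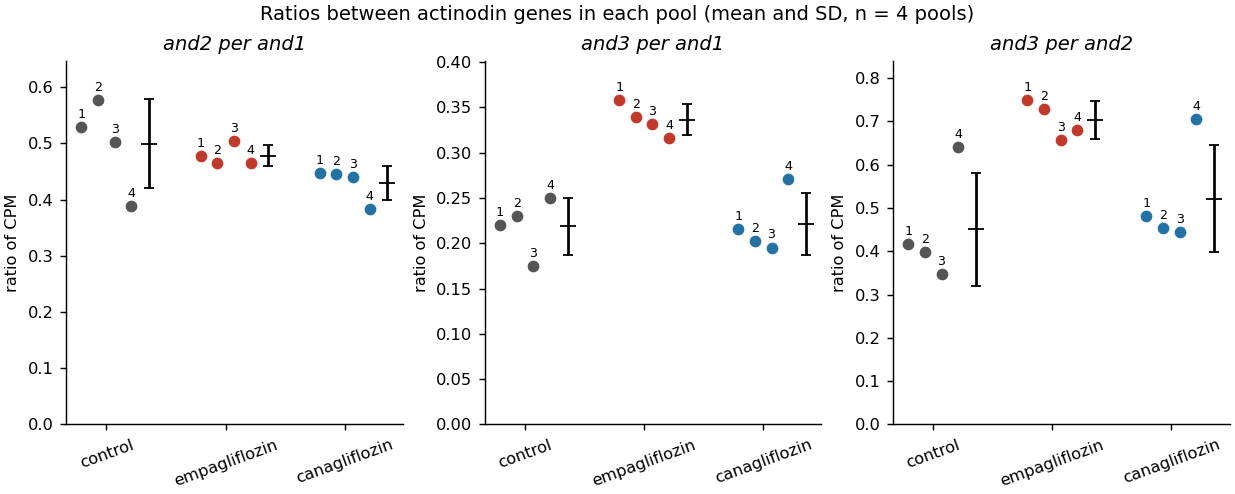
Ratio of CPM between actinodin genes (vertical axes, from 0) in each of the 12 pools by group, with replicate numbers, and mean and SD over 4 pools. The ratio of and3 to and1 is 0.316 to 0.358 in the empagliflozin pools and at most 0.271 in the others.

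In each group, and1 and and3 were lowest in the pool with the most RNA of mmp9, a matrix metalloproteinase gene that is induced at wounds in zebrafish. In control 3 mmp9 stood at 92.0 CPM, in empagliflozin 3 at 51.5 and in canagliflozin 1 at 67.2, the highest pool of each group. Those pools had the lowest and1 and the lowest and3 of their groups in 3 of 3 groups, and the lowest and2 in 2 of 3. The same pools were the lowest of their groups on the principal axis, at -17.0, 15.7 and -17.9. High mmp9 and a low place on that axis therefore cannot be told apart in them. How many of all genes were lowest in these pools was not counted. The counts for and1 and and3 are not independent, since r between these genes was 0.92 over the 12 pools. In control 3, and3 was at 37.4 CPM against 48.1 to 68.0 in the other controls. In empagliflozin 3 it was at 81.2 against 101 to 125, and in canagliflozin 1 at 34.999 against 44.7 to 96.8. Canagliflozin 2 also had high mmp9, 52.3 CPM, with and3 at 44.7, whereas canagliflozin 4 and empagliflozin 4, with the lowest mmp9 of their groups at 4.87 and 6.67 CPM, had the highest and1, and2 and and3. The controls were mixed, since control 1 and control 4 had nearly equal mmp9, the lowest of the group at 7.89 and 7.92 CPM. Control 1 had and1 at 218 and and3 at 48.1 CPM, the second-lowest of the controls. Control 4 had the highest and1 and and3 of the controls, 272 and 68.0 CPM, but the lowest and2, 106 CPM. The summed RNA of the 13 wound and inflammation genes in the table ran from 190 to 480 CPM in control, 208 to 518 with empagliflozin and 112 to 421 with canagliflozin. In empagliflozin against control 0 of 10 tested genes of that list passed (median -0.29), beside 13.3% of all genes, so that with 10 genes the count says little. In canagliflozin against control 0 passed, and against canagliflozin 1 rose and 0 fell, beside 25.5% of all genes. These counts were equal without control 4 and canagliflozin 4. Beside them then stood 35.5% of all genes for empagliflozin against control, 0% for canagliflozin against control and 40.8% between the compounds. The part of wounding in the differences between pools was not tested.

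**Figure D4:**
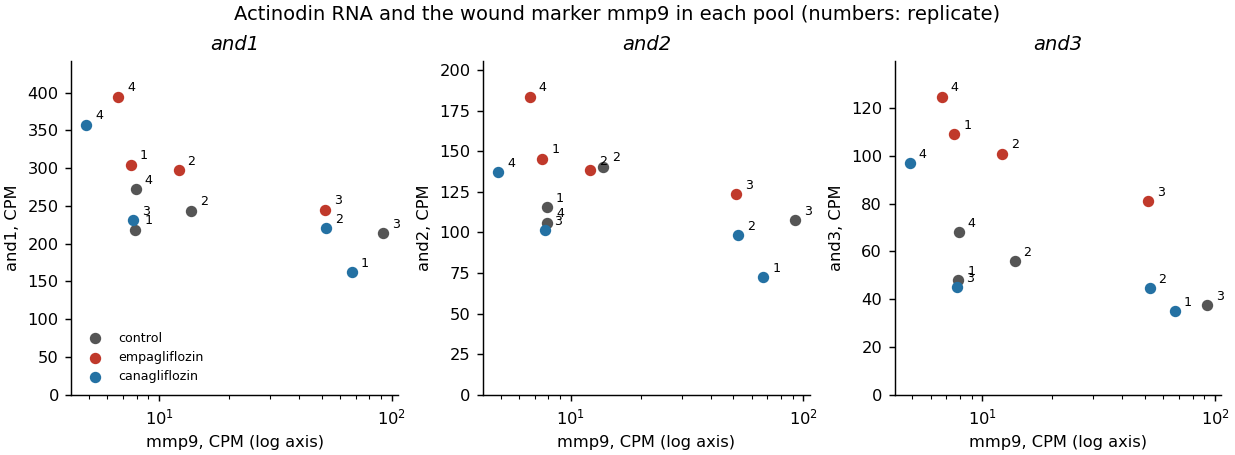
Level of each actinodin gene in CPM (vertical axes, from 0) against that of mmp9 in CPM (horizontal axes, log scale) in each of the 12 pools, coloured by group, with replicate numbers. In each group the pool with the highest mmp9, at 51.5 to 92.0 CPM, has the lowest and1 and and3 of that group.

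The fibril and matrix list holds collagens, enzymes and chaperones that process collagens, and other proteins of the matrix. In empagliflozin against control, 2 of 29 tested fibril and matrix genes rose and 2 fell, beside 6.87% and 6.41% of all genes, so that the count is near the background. Their median log2 difference was 0.05, beside -0.00 over all genes. With control 4 and canagliflozin 4 left out, 7 rose and 5 fell, beside 18.9% and 16.6% of all genes. The main fibrillar collagens did not pass: col1a1a differed by -0.02, col1a2 by -0.07 and col2a1a by -0.06. The type XI collagen genes col11a1b and col11a2 rose by 0.35 and 0.36, from 191 ± 17.3 to 244 ± 23.3 CPM and from 208 ± 37.5 to 265 ± 31.7 CPM. The collagen chaperone gene serpinh1b fell by 0.27 and the lysyl hydroxylase gene plod1a by 0.33 on the log2 scale. Limma adjusted p was 0.0229 to 0.0496 for these, and each call was lost without at least 1 pool. The adjusted p reached 0.0785 (col11a1b) and 0.138 (col11a2) without control 3 and 0.0699 (serpinh1b) and 0.0868 (plod1a) without control 2. The call of col11a2 was lost when any of 10 pools was left out, and also with quantile normalization, with median centring and in edgeR.

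Against canagliflozin 8 of the 29 rose and 5 fell, beside 12.4% and 13.1% of all genes, with a median of 0.08 beside 0.01 over all genes. The counts were 10 and 5 without those pools, beside 21.1% and 19.7% of all genes. Among those that rose with empagliflozin were genes of type IX and type XI collagen chains, col9a1b by 0.55, col11a2 by 0.53, col9a3 by 0.47, col9a2 by 0.40 and col11a1a by 0.40 (limma adjusted p 0.0028 to 0.00726), while the type II collagen gene col2a1a differed by 0.08 and did not pass (limma adjusted p 0.613). plod1a fell by 0.49, from 111 ± 9.72 CPM with canagliflozin to 78.3 ± 6.40 with empagliflozin. These 6 calls held when each pool was left out in turn. The others that passed were col11a1b, col5a2a and loxl3b, which were higher, and serpinh1a, serpinh1b, plod3 and crtap, which were lower; these last 4 lost their call without at least 1 pool (limma adjusted p up to 0.123). In canagliflozin against control 0 of 29 passed, and serpinh1a, at 173 ± 18.9 against 139 ± 9.003 CPM, differed by 0.31 (limma adjusted p 0.493). The summed level of the 30 fibril and matrix genes in the table was 10429 to 11528 CPM in control, 11239 to 12260 with empagliflozin and 10297 to 11419 with canagliflozin.

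The fin fold ectoderm list holds signals and transcription factors of the apical ridge and proteins that anchor it to the basement membrane. Its genes were mostly higher in mean than in control with either compound. Since whole embryos were lysed, RNA of these genes from other tissues is counted too. Of the list, fgf8a and bmp4 are also on the tailbud list and tp63 is also on the epidermis list. With empagliflozin 27 of 33 tested had a higher mean, with a median of 0.17, beside 5951 of 11964 over all genes. With canagliflozin 25 of 33 had one, with a median of 0.08, beside 5852 of 11964. Both counts rest on the same control pools, so they are not independent. With empagliflozin 1 passed the test, tp63, and 0 fell, beside 6.87% and 6.41% of all genes. When control 4 and canagliflozin 4 were left out, 10 passed as higher and 0 as lower, beside 18.9% and 16.6% of all genes. tp63, the transcription factor of basal epidermis, stood at 88.9, 94.0, 95.8 and 119 CPM in the controls and at 137, 137, 127 and 145 with empagliflozin. The groups did not overlap, which was so for 19.1% of all genes. For tp63 the log2 difference was 0.46 (limma adjusted p 0.0267). The call was lost when any of 7 pools was left out, with limma adjusted p up to 0.0784 (without control 2). In canagliflozin it stood at 89.9, 87.2, 100.03 and 137 CPM, where pool 4 again lay at the level of the empagliflozin pools. Against canagliflozin 2 ectoderm genes rose, tp63 by 0.42 and the engrailed gene eng1a by 0.46, and 2 fell, sp8a by 0.29 and sp8b by 0.17, zinc finger genes of the ridge (limma adjusted p 0.0208 to 0.0488). Beside these stand 12.4% and 13.1% of all genes. Without control 4 and canagliflozin 4 the counts were 7 and 3, beside 21.1% and 19.7% of all genes. Each of these 4 calls was lost without at least 1 pool, with limma adjusted p of up to 0.129. In canagliflozin against control 0 of 33 passed; the ridge signal gene fgf8a differed by 0.22 and sp9 by 0.20 (limma adjusted p 0.604 and 0.668).

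Of 23 fin mesenchyme genes tested, 0 rose and 1 fell in empagliflozin against control, beside 6.87% and 6.41% of all genes, with a median of 0.03. With both outlying pools, control 4 and canagliflozin 4, left out, 3 rose and 1 fell, beside 18.9% and 16.6% of all genes. The homeobox gene meox1, known also from the somites, fell by 0.36, from 25.1 ± 1.41 to 19.5 ± 2.27 CPM (limma adjusted p 0.0186; 0.0662 without control 3). Against canagliflozin it fell by 0.48, hoxa13a fell by 0.40 and tbx18 rose by 0.31 (limma adjusted p 0.00142, 0.0484 and 0.0163), beside 12.4% of all genes as higher and 13.1% as lower. Without the 2 pools 4 rose and 2 fell, beside 21.1% and 19.7% of all genes. The call of hoxa13a was lost when any of 10 pools was left out (limma adjusted p up to 0.124), and that of tbx18 without canagliflozin 3 (0.0507). hoxa13b, a regulator of distal fin identity, was low, at 2.94 ± 0.751 CPM with empagliflozin, 2.72 ± 0.485 in control and 2.597 ± 1.06 with canagliflozin, and passed in none of the comparisons. In canagliflozin against control 0 of 23 passed. Of 13 tested genes of the tailbud, 0 passed against control with either compound, beside 13.3% of all genes for empagliflozin and 0% for canagliflozin, and 1 rose and 0 fell with empagliflozin against canagliflozin, beside 25.5%. Without control 4 and canagliflozin 4, 2 rose and 0 fell with empagliflozin against control, beside 18.9% and 16.6% of all genes. In the same fit 2 rose and 1 fell against canagliflozin, beside 21.1% and 19.7%. The summed level of the fin mesenchyme list was 547 to 599.5 CPM in control, 558 to 595 with empagliflozin and 572 to 613 with canagliflozin.

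Epidermal genes moved in both directions. Of 34 tested, 2 rose and 7 fell in empagliflozin against control, beside 6.87% and 6.41% of all genes, with a median of -0.02. Without control 4 and canagliflozin 4, 1 rose and 10 fell, beside 18.9% and 16.6% of all genes. Those that rose were tp63 and col17a1a, which encodes a hemidesmosome collagen of basal cells. col17a1a was at 48.1 ± 4.47 against 32.0 ± 12.6 CPM, a difference of 0.65 (limma adjusted p 0.0448). It did not pass without control 4 and canagliflozin 4 (limma adjusted p 0.0584). Its call was lost when any of 8 pools was left out, with limma adjusted p up to 0.133 (without control 3). It was also lost with no minimum, quantile normalization, no variance trend or sample weights, and in edgeR. Those that fell included anxa1c, an annexin gene, by 0.51 from 576 ± 82.1 to 401 ± 20.03 CPM, the S100-family gene icn by 0.50, the claudin genes cldni by 0.42 and cldnf by 0.27 and the keratin gene krt18 by 0.31 (limma adjusted p 0.0148 to 0.0492). The other 2 were the keratin gene krt97 and the protease inhibitor gene spint1b. Each of these 9 calls was lost without at least 1 pool, with limma adjusted p between 0.0551 (anxa1c, without control 3) and 0.145 (spint1b, without control 3) at its highest. The number of such pools ran from 2 for anxa1c to 10 for cldnf.

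Against canagliflozin 6 epidermal genes rose and 10 fell, beside 12.4% and 13.1% of all genes. In the fit without those pools 8 rose and 12 fell, beside 21.1% and 19.7% of all genes. col17a1a rose by 1.09, from 22.1 ± 2.98 to 48.1 ± 4.47 CPM, and the keratin gene krt15 by 0.57 (limma adjusted p 0.0019 and 0.00981), while anxa1c fell by 0.49 and cldni by 0.46 (limma adjusted p 0.00579 and 0.00431). These 4 calls held when each pool was left out in turn, and 10 of the 16 calls on the list did not. In canagliflozin against control 0 of 34 passed, with evpla at -0.23 and st14b at -0.30 (limma adjusted p 0.544 and 0.541). The summed level of the 35 epidermal genes in the table was 34962 to 42919 CPM in control, 32926 to 35332 with empagliflozin and 38628 to 41573 with canagliflozin. Control 4, at 34962 CPM, lay within the empagliflozin range, whereas canagliflozin 4, at 41573, was the highest pool of its group. The keratin gene krt4 alone held 14498 to 20417 CPM, so the sum follows a few abundant genes. The mean log2(CPM + 1) over the list overlapped between groups. It was 7.11 to 7.31 in control, 7.09 to 7.19 with empagliflozin and 7.13 to 7.20 with canagliflozin. By that mean canagliflozin 4, at 7.14, was not the highest of its group. The part of epidermal content in the actinodin differences was not tested.

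**Figure D5:**
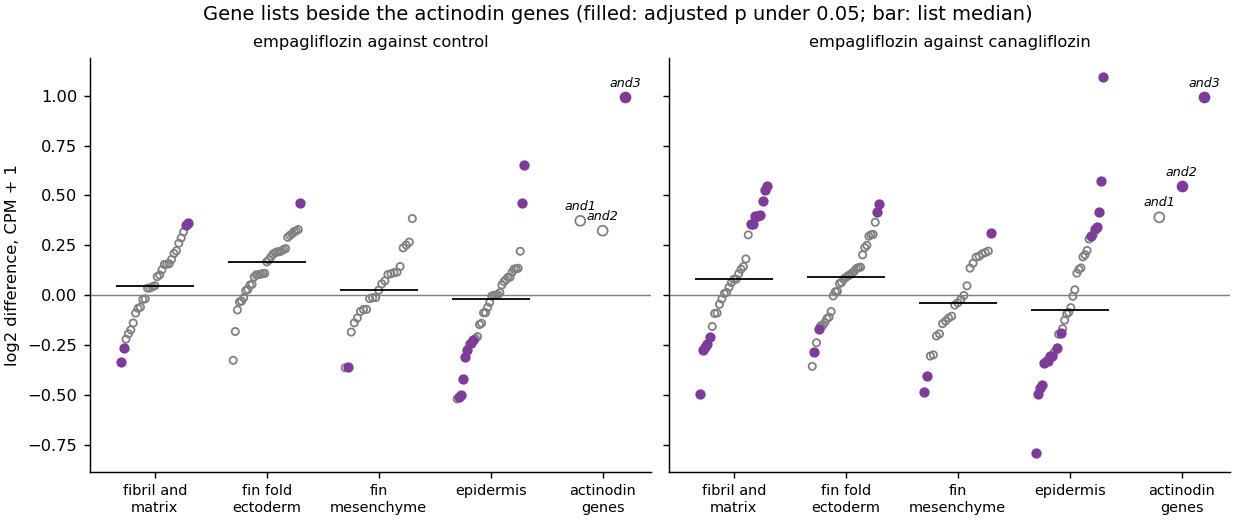
Log2 difference in CPM + 1 (vertical axis) of each tested gene of 4 lists and of the actinodin genes, in order of size within a list, for empagliflozin against control and against canagliflozin; filled points passed a limma adjusted p of 0.05 and bars mark list medians. Against control, and3 at 0.99 lies above every gene of the lists, whose highest is col17a1a at 0.65; against canagliflozin, col17a1a at 1.09 lies above it.

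The genes whose pool-to-pool deviations were most like those of each actinodin gene were sought among 9941 other genes with a mean of at least 5 CPM, over the 12 pools and with the group means taken out. For and3 these were insm1b (r = 0.98), shisa3 (0.98), otx2 (0.97), zgc:92030 (0.97), ube2d1a (0.97) and dbx1a (0.97), and and1 ranked 31 and and2 739. Of these, otx2, a homeobox gene of head and eye, also rose with empagliflozin against control, by 0.57 (limma adjusted p 0.017). For and1 they were ikzf5 (0.96), ints3, the small proteoglycan gene dcn, ube2d2, memo1 and the melanin synthesis gene dct (0.95 to 0.94), and and3 ranked 7 and and2 70. For and2 the first 5 were bsg, elmo1, cd9a, fmoda, which encodes a collagen-binding proteoglycan, and aup1 (0.95 to 0.92), and and1 ranked 16 and and3 86. With the group means kept, r with and2 was 0.84 for bsg, 0.66 for elmo1, 0.77 for cd9a, 0.78 for fmoda and 0.0014 for aup1. The group means were again taken out over the 10 pools without control 4 and canagliflozin 4. There r of the genes named for each actinodin gene with that gene was 0.87 to 0.93. Between the actinodin genes it was then 0.92 for and2 and and3, 0.96 for and1 and and2 and 0.87 for and1 and and3. The low rank of and2 beside and3 thus holds for the 12 pools, and ranks over the 10 pools were not computed. The correlations are a description of 12 pools and were not tested.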

How the data were processed

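RNA was measured in 12 pools. The authors deposited a normalized signal per gene and pool. Multiplied out, 100% of its values were whole reads within 0.001 reads, so it is CPM, a count scaled to library size, with TMM factors, and 1 read was worth 0.0363 to 0.0621 CPM. Per the submitters' processing notes, FastQC, the danRer10 build and R 3.6.1 were used; the aligner, counter and filters were not given in the sources used here. Comparison tables deposited by the authors give p-values, false discovery rates and log2 fold changes.

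Genes with a mean of at least 1 CPM, 11964 of 14134, entered a limma 3.58.1 fit (R 4.3.3) on log2(CPM + 1), with 1 mean per group, a variance trend, two-sided tests and Benjamini-Hochberg adjustment over all genes tested (threshold 0.05). This scale understates changes of low genes. Intervals are unadjusted 95% intervals. Exact permutation tests used single genes. edgeR 4.0.16 and DESeq2 1.42.0 on the recovered reads were alternatives; edgeR called 1484 genes for empagliflozin and 0 for canagliflozin, each against control, and 2990 between the compounds. The fit was tested on simulated data.

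The members and the gene lists were chosen with earlier results of these data known. Named genes were the actinodin genes; per comparison up to 6 list members past the threshold, or else 2 with the smallest p; 5 reference genes; and for each actinodin gene the 6 genes with the most similar deviations from group means. Not every gene so selected is printed. List genes absent under their symbol were matched through RefSeq synonyms. No 2 pools of a group were copies (chi-square per degree of freedom at least 4.92). Nothing in the labels names clutches or days, so p-values measure the spread between pools.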

Additional observations from a re-analysis of the deposited data

Results flagged for a closer look

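In groups of 4 pools, a highest or lowest pool was picked out where the share of the group's range taken by its gap to the next was above Dixon's 95% critical value. Chance picks about 1 group in 20; 10 of 162 groups of the named genes were picked. Canagliflozin 4 was the pool in 6 of these, but dbx1a, otx2 and ube2d1a were named for deviations that follow those of and3, so that their values in that pool are not independent of it and the chance rate does not apply to them. The same holds for cd9a, dcn and ube2d2, named for their likeness to and2 or and1. In that pool and3 stood at 96.8 CPM, next to 45.1 in the nearest other canagliflozin pool. There too dbx1a stood at 102 CPM (next 69.9), otx2 at 76.1 (next 51.4), ube2d1a at 61.9 (next 41.7) and col9a2 at 294 (next 279.9), all as the highest of the group, and col2a1a at 817 (next 1060) as the lowest. Control 4 held the highest ube2d2 of its group, 257 CPM (next 211), control 2 the highest cd9a, 15.8 (next 12.3), and control 3 the lowest serpinh1b, 405 (next 442). In empagliflozin 4 dcn was at 161 CPM (next 142). The cause was not tested in any of these.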

How the results depend on the processing

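The rise of and3 with empagliflozin against control kept its call in every setting that used all 12 pools, and so did the higher and3 and and2 with empagliflozin against canagliflozin. Leaving out 1 pool at a time gave log2 differences of 0.84 to 1.13 for and3, 0.25 to 0.48 for and1 and 0.21 to 0.41 for and2 with empagliflozin against control. Against canagliflozin they were 0.81 to 1.29, 0.22 to 0.60 and 0.39 to 0.70, and with canagliflozin against control -0.30 to 0.18, -0.22 to 0.16 and -0.37 to -0.07. With empagliflozin against control and1 passed under the replicate block (0.37), with sample weights (0.34) and without control 4 and canagliflozin 4 (0.44); against canagliflozin it passed in the same settings at 0.39, 0.49 and 0.60. With canagliflozin against control, where no actinodin gene passed, the sign of and1 turned in edgeR (0.031) and DESeq2 (0.036). That of and3 turned with a pseudocount of 0.1 (-0.00089), quantile normalization (-0.020), sample weights (-0.23) and without both pools (-0.17). Among reference genes, none of which passed there, signs also turned. With canagliflozin against control col1a2 was -0.043 with quantile normalization, and tp63 was -0.0056 with sample weights and -0.0093 without both pools. Against canagliflozin col1a2 was 0.017 with quantile normalization, and col2a1a was -0.0068 with sample weights and -0.017 without both pools. Leaving out 1 pool gave, with empagliflozin against control, -0.057 to 0.013 for col1a1a, -0.12 to 0.0064 for col2a1a and -0.022 to 0.17 for hoxa13b. With canagliflozin against control it gave -0.020 to 0.062 for col1a2, -0.25 to 0.079 for hoxa13b and -0.098 to 0.13 for tp63, and with empagliflozin against canagliflozin -0.017 to 0.15 for col2a1a and -0.0063 to 0.32 for hoxa13b. The cause was not tested. The replicate numbers were not treated as pairs, because deviations of equally numbered pools correlated at -0.12 to 0.59 and above 0.1 in 2 of 12 pairs; the replicate block called 2269, 0 and 3456 genes where the fit without it called 1589, 0 and 3049.

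Counts of all genes moved by over 1.5 times in some settings. With empagliflozin against control 1589 became 269 to 3033 without 1 pool, 4246 without control 4 and canagliflozin 4, and 4476 with sample weights. Against canagliflozin 3049 became 1931 to 4233, 4886 and 5464. With canagliflozin against control 0 became 7 without control 3, 24 in DESeq2 and 42 with sample weights. Of 600 recomputed counts of list genes called, 144 moved by over 1.5 times. Correlations between the actinodin genes kept their sign and call in all settings, with r of 0.80 to 0.94 without 1 pool.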

Other observations

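On the RefSeq annotation, used for gene order alone, the genes next to and3 were vamp2 and ap4m1. vamp2, which encodes a synaptic vesicle protein, was 0.49 higher on the log2 scale with empagliflozin than in control and 0.63 higher than with canagliflozin (limma adjusted p 0.0102 and 0.000706). ap4m1 differed by 0.11 and 0.08 (limma adjusted p 0.485 and 0.577). These genes were looked at after the values of and3 had been seen.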
